A study of Rattus norvegicus with 10 samples.

Results

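The fat-cell genes of DMBA-induced rat mammary tumors were followed through a list of 36 genes of adipocyte identity, lipid droplets, lipolysis, fuel uptake and triglyceride assembly. A gene was measured where the platform annotation gave its symbol alone to a probe set of the array, and its brightest probe set over all 10 arrays gave its value. This yielded 34 of the 36 genes, among 14217 genes measured in all. Retn and Adig were not analysed here. Of the 34, 29 passed the filter on low signal, which left out the 25% of probe sets with the lowest mean over all arrays (a limit of 4.11 on the log2 scale). Lep, Acvr1c, Pnpla3, Adrb3 and Ucp1 did not pass it, so the counts below cover 29 genes.

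The final group held 5 tumors of 19-week-old female Sprague-Dawley rats, sampled after adriamycin at 1 mg/kg per week for 6 weeks through the tail vein. The basal group held the same 5 tumors biopsied by needle at 12 weeks of age with no adriamycin. The tumor codes were 09I1, 11D2, 12I1, 29I1 and 43D1. All tumors had been induced with 1 oral dose of the carcinogen DMBA at 100 mg/kg. Adriamycin (doxorubicin) is an anthracycline that inhibits topoisomerase II. The study set each tumor's final transcripts against its own basal ones. There was no untreated 19-week tumor to compare. The final sample is a whole tumor in the labels but comes from a needle according to the design text. The codes that end the sample titles form a separate run of numbers in each group, and what they stand for is not given in the labels. Drug, age, kind of sample and title code therefore cannot be told apart. Whether each tumor came from a rat of its own is not given in the sources used here.

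Values were log2 levels after robust multichip averaging, so a difference of 1 is a doubling, and levels of different probe sets cannot be set against each other. The final array of 09I1 stood apart. Across probe sets, its correlations with the rest had a median of 0.938, where each of the other 9 arrays had 0.975 to 0.984, and its beta-actin control read 2.61 higher at the 3' end than at the 5' end, against 0.72 to 0.96. Over all 23281 probe sets tested, 0 passed an adjusted p under 0.05 (limma, Benjamini-Hochberg, 0%), also without 09I1, and 935 (4.02%) had an unadjusted p under 0.05.

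White fat cells store triglyceride in a single large droplet coated by perilipin, and release it through lipolysis, in which Pnpla2, Lipe and Mgll remove the fatty acids in turn. The transcription factors Pparg and Cebpa drive their identity, and the cells secrete hormones such as adiponectin and leptin. The rat mammary gland lies in a fat pad, and its epithelium also takes up and makes fat for milk, so some of these genes are used by more than 1 cell type. In bulk samples such as these, fewer fat cells and less RNA per fat cell cannot be told apart.

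No fat-cell gene passed the test. At an adjusted p under 0.05 (limma), 0 of the 29 tested were higher and 0 were lower (0% of all probe sets in each direction), and none had an unadjusted p under 0.05, against 1.78% higher and 1.1% lower among all 12255 genes tested. The mean change was above 0 for 25 of the 29 genes (86.2%), against 52.7% of all genes. Their median change, final minus basal, was 0.30, against 0.01 for all genes. By tumor, this median was 0.49, 0.57, 0.05, -0.44 and 0.21 in 09I1, 11D2, 12I1, 29I1 and 43D1, with 23, 26, 16, 8 and 18 of the 29 genes above 0. Among all 12255 genes, 7185, 5768, 6979, 5602 and 5995 were above 0, and the medians were 0.15, -0.02, 0.05, -0.04 and -0.01. The fat-cell median was thus above that of all genes in 09I1, 11D2 and 43D1, level with it in 12I1 and below it in 29I1. Without 29I1 the median was 0.50, and 10 genes (Adipoq, Cfd, Pparg, Car3, Plin1, Cidec, Cidea, G0s2, Lpl and Fabp4) had an unadjusted p under 0.05, against 4.14% of all probe sets in that fit, with a smallest adjusted p of 0.945 (limma). This tumor is singled out because of its values, so that fit is a description. Without 11D2 the median was 0.13, and without 09I1 it was 0.29. Only 1 gene, Aqp7, was higher in all 5 tumors (3.45%, against 3.33% of all genes), and 0 were lower in all 5 (2.51% of all genes). For 0 of the 29 genes did the groups fail to overlap, against 0.432% of all genes with every final sample higher and 0.408% with every final sample lower.

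**Figure D1:**
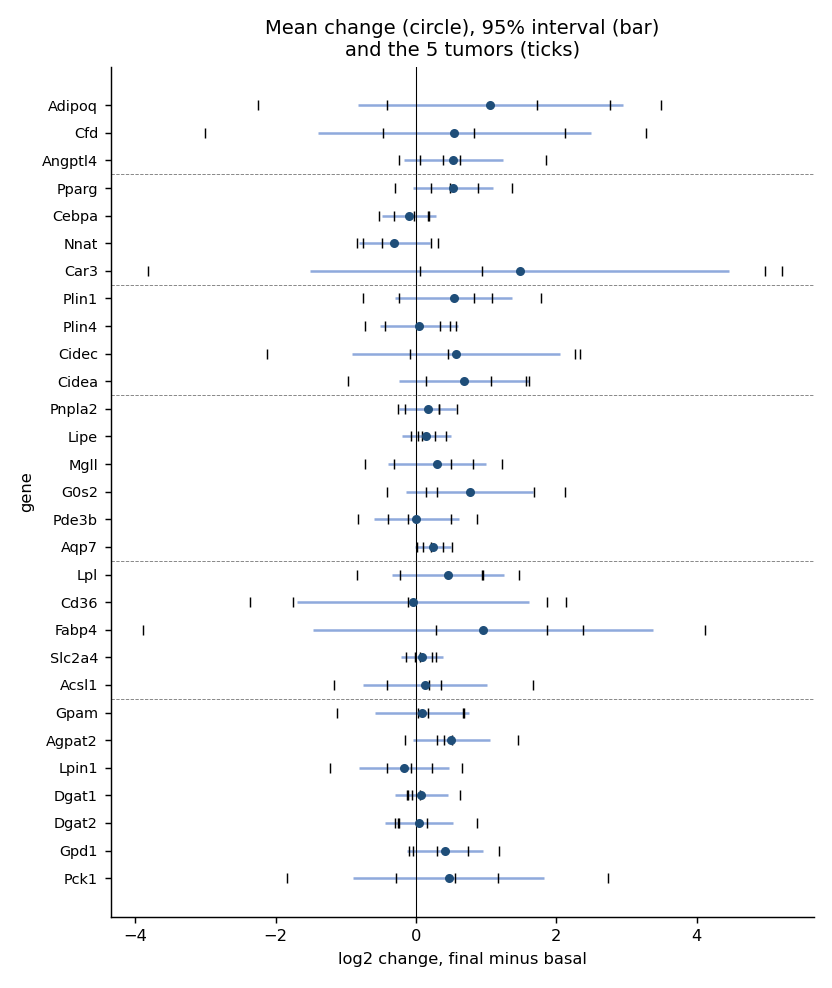
Log2 change, final minus basal, of the 29 tested fat-cell genes, ordered by role, with dashed lines between roles. Circles are limma means over 5 tumors, bars their 95% intervals and ticks the 5 tumors; every interval includes 0, and those of Car3, Fabp4 and Cfd span the most while those of Lipe, Aqp7 and Slc2a4 are narrow.

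Single samples differed widely. The fat-cell hormone gene Adipoq, encoding adiponectin, read 6.55, 7.39, 3.65, 4.65 and 6.39 in final samples of 09I1, 11D2, 12I1, 29I1 and 43D1, against 3.78, 3.90, 4.07, 6.90 and 4.66 in the basal samples of the same tumors. It was thus high in 3 final samples and 1 basal sample, and the groups overlapped. Within tumors it was 6.81-fold higher in the final sample of 09I1, 11.3-fold higher in 11D2 and 3.30-fold higher in 43D1, and 4.78-fold lower in 29I1. In 12I1 both levels lay under the filter limit. The mean change was 1.06 ± 0.80 (SE, n = 5 tumors, limma adjusted p = 0.977), with a 95% interval of -0.83 to 2.95. A level under the limit of 4.11 is close to the lowest signals of the array, so a change that starts or ends there has an uncertain size.

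The droplet genes Plin1, by its brighter probe set, and Cidec followed the same samples. Plin1, which encodes the perilipin that coats the droplet and gates lipolysis, read 4.62, 5.60, 3.52, 3.76 and 4.68 in final samples of 09I1, 11D2, 12I1, 29I1 and 43D1, against 3.54, 3.83, 3.76, 4.52 and 3.84 in basal samples. Only those same 4 samples exceeded the limit of 4.11. The dimmer Plin1 probe set, under the filter at a mean of 3.54, had its lowest value, 3.36, in the basal sample of 29I1. Its changes were 0.46, 0.085, -0.24, 0.034 and 0.29 in 09I1, 11D2, 12I1, 29I1 and 43D1. Cidec, which encodes a protein that fuses droplets into larger ones, read 6.06, 6.00, 4.03, 4.09 and 4.94 in final samples in the same order, against 3.73, 3.73, 4.12, 6.21 and 4.48 in basal samples. Its highest value was that of the basal sample of 29I1. The mean changes were 0.54 ± 0.35 for Plin1 and 0.57 ± 0.63 for Cidec (SE, n = 5 tumors, limma adjusted p = 0.977 for each).

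**Figure D2:**
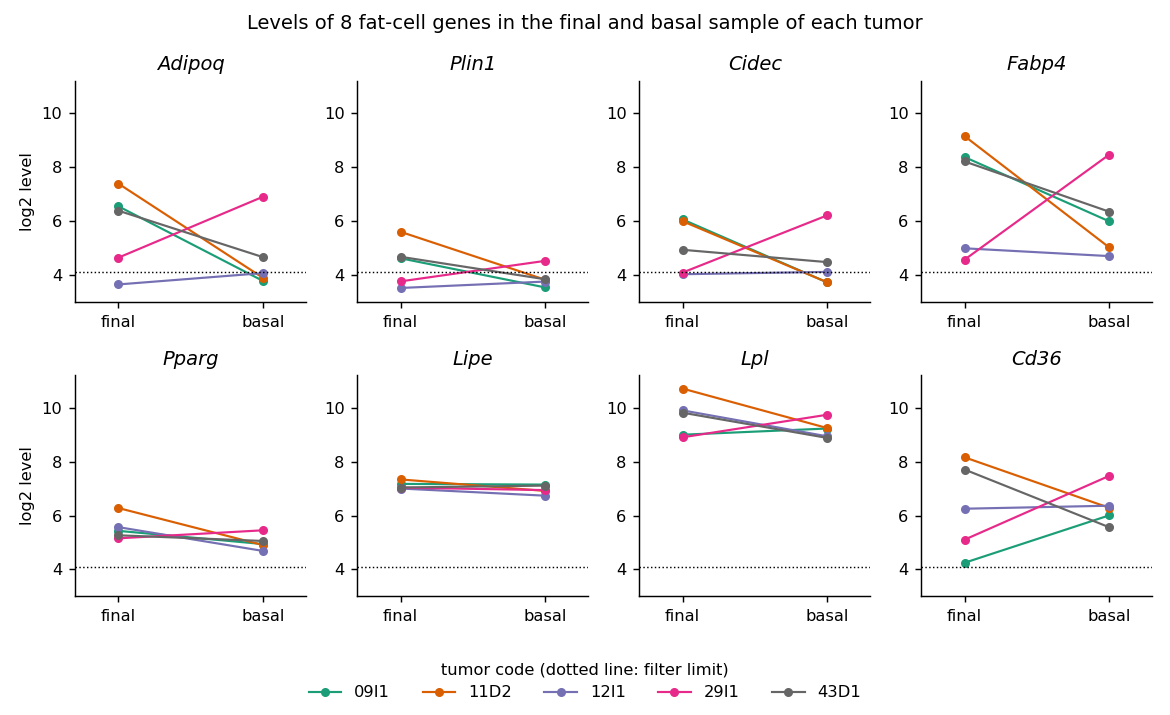
Log2 level (vertical axis) of 8 fat-cell genes in the final and the basal sample of each tumor, joined by a line per tumor; the dotted line is the filter limit of 4.11. Adipoq, Plin1, Cidec and Fabp4 are higher in the final samples of 09I1, 11D2 and 43D1 and in the basal sample of 29I1, while Lipe stays between 6.74 and 7.34 on all 10 arrays.

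The mean of Adipoq, Plin1 and Cidec was taken as a core, since these genes mark fat cells. It was 5.74, 6.33, 3.73, 4.17 and 5.33 in final samples of 09I1, 11D2, 12I1, 29I1 and 43D1, against 3.68, 3.82, 3.98, 5.88 and 4.33 in basal samples. The 4 highest arrays were the final samples of 11D2, 09I1 and 43D1 and the basal sample of 29I1. Of the 29 tested fat-cell genes, 8 had these as their own 4 highest arrays, namely the 3 core genes with Cfd, Car3, Fabp4, Acsl1 and Pck1 (27.6%, against 108 genes or 0.881% of all genes). The arrays were read from the core, so its own 3 genes are no evidence, and the 27.6% counts them. Plin1 exceeded the filter limit only on these 4 arrays. Acsl1 entered narrowly, at 6.36 in the final sample of 09I1 against 6.35 in the basal sample of 12I1. The set of 8 was formed after the values were seen and is described without a test. Over the 10 arrays, which share tumors in pairs, Pearson's r with the core was 0.97 for Pck1, 0.95 for Car3, 0.94 for Fabp4, 0.87 for Cfd and 0.86 for Acsl1. The next were Pparg at 0.72 and Cidea at 0.67, and the lowest were Gpam at -0.41 and Lpin1 at -0.58.

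The promoters of the core genes and of Pck1, which had the highest r of the listed genes outside the core, show what sequence lies at the start of genes that were high on the same arrays. They are taken from RefSeq (GRCr8, 250 bases before to 50 after the start, 5' to 3' on the gene's strand), and 24 of the 36 genes had an entry. Capitals mark matches on either strand to TTGCNCAA, a form of the C/EBP site, or to AGGTCA, the core of nuclear receptor sites such as that of Pparg. The region of Adipoq is chr11:91240120-91240419 (minus strand), that of Plin1 is chr1:143086099-143086398 (minus strand), that of Cidec is chr4:148137066-148137365 (minus strand) and that of Pck1 is chr3:182348322-182348621 (plus strand).
Adipoq: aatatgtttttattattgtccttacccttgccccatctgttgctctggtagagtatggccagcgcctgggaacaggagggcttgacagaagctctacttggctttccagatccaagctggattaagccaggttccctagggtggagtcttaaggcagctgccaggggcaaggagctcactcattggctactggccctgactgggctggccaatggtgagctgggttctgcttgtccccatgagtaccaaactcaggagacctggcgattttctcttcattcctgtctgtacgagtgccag
Plin1: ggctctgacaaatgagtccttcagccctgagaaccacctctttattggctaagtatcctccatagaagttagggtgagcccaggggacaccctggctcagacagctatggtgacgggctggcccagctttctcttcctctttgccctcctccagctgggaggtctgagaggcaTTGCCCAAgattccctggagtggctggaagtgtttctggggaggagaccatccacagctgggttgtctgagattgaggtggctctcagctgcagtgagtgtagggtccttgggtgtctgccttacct
Cidec: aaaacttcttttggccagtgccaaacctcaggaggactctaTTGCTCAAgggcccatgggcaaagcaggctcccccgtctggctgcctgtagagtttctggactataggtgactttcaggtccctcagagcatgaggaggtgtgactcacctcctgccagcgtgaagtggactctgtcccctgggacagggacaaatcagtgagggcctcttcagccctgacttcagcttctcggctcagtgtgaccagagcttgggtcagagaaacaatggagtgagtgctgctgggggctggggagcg
Pck1: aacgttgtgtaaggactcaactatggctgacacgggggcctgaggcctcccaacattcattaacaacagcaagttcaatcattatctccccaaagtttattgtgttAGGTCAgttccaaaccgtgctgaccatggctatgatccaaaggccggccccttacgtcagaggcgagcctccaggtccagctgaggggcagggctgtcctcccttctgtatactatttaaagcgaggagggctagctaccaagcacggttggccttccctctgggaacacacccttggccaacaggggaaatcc
TTGCNCAA occurred in Plin1 (bases 174 to 181 of the window), in Cidec (bases 42 to 49) and in Lep, which makes 3 of the 24 genes, against 2.98% of 27457 genes. AGGTCA occurred in Pck1 (bases 107 to 112), Retn, Adig and G0s2, 4 of the 24, against 16.9% of all genes. The direct repeat AGGTCANAGGTCA, which holds AGGTCA at both ends, was found in 0 of the 24 windows and in 0.0619% of all. The Adipoq window held no match. Such matches are a description of the window, not evidence of binding.

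**Figure D3:**
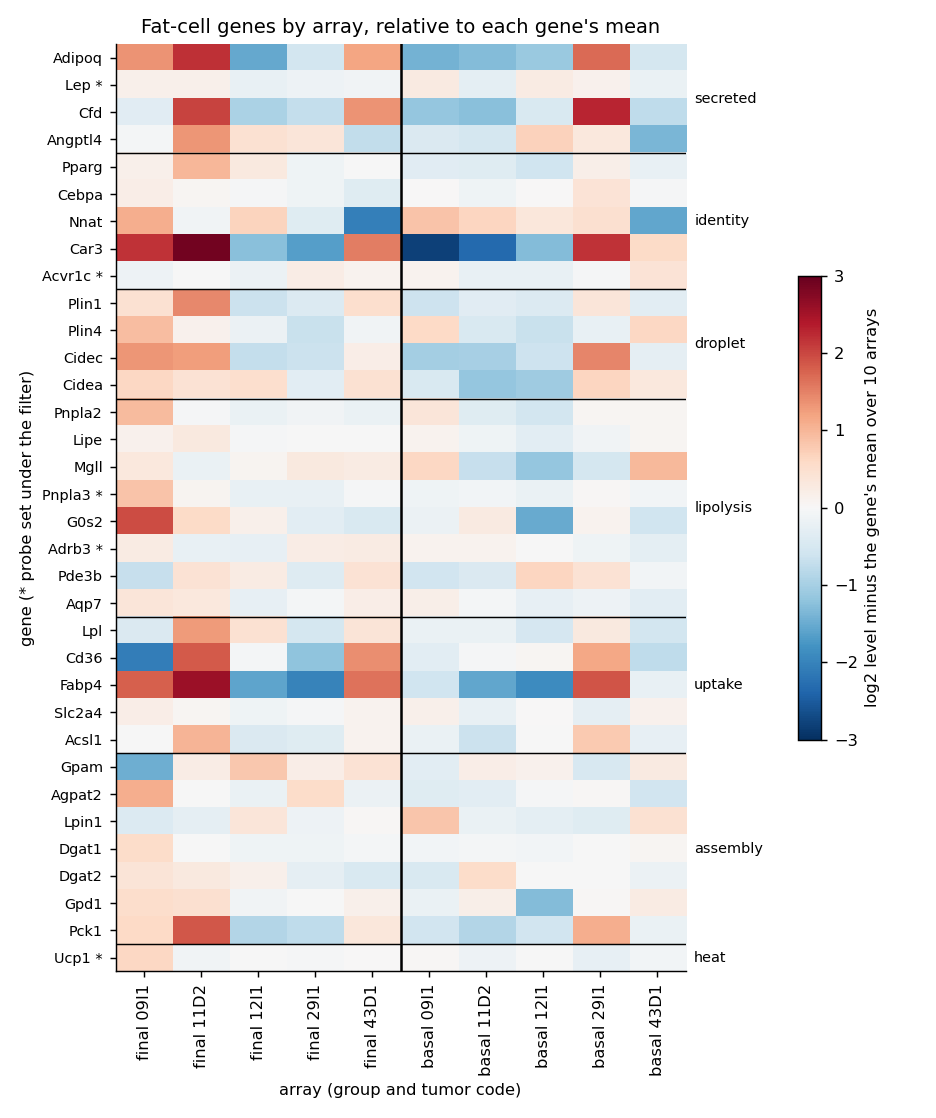
Log2 level of the 34 measured fat-cell genes (rows, by role; an asterisk marks a probe set under the filter) on the 10 arrays (columns, final samples left of basal ones), minus each gene's mean over the arrays. Adipoq, Cfd, Car3, Cidec, Fabp4 and Pck1 share red cells in the final samples of 09I1, 11D2 and 43D1 and the basal sample of 29I1, except that Cfd is slightly blue in final 09I1.

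Among the other secreted proteins, Cfd, the gene of the fat-cell protease adipsin, read 8.17, 10.52, 7.56, 7.78 and 9.86 in final samples of 09I1, 11D2, 12I1, 29I1 and 43D1, against 7.34, 7.25, 8.04, 10.79 and 7.73 in basal samples. It was 9.66-fold higher in the final sample of 11D2 and 8.07-fold lower in that of 29I1. Angptl4, which encodes an inhibitor of lipoprotein lipase, ranged from 7.33 to 9.39 in final and from 6.71 to 8.76 in basal samples, with a mean change of 0.53 ± 0.30 (SE, limma adjusted p = 0.977). The leptin gene Lep lay between 3.72 and 4.09 in final and between 3.64 and 4.21 in basal samples. Its probe set stayed near the filter limit on every array, including those where Adipoq was high, so a leptin signal was not detectable here.

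Pparg, the main regulator of fat-cell identity, read 5.43, 6.28, 5.57, 5.16 and 5.27 in final samples of 09I1, 11D2, 12I1, 29I1 and 43D1, against 4.94, 4.91, 4.69, 5.45 and 5.06 in basal samples. It was higher in 4 of 5 tumors, 12I1 included, where the core was not. Its mean change of 0.53 ± 0.24 (SE) had an unadjusted p of 0.0643 and a limma adjusted p of 0.977. Its unadjusted p was under 0.05 in 5 alternative fits: no block, a random block, centring on the array median, array weights and leaving out 29I1. Cebpa, its partner in fat cells, read 8.22, 8.07, 7.99, 7.90 and 7.67 in final and 8.03, 7.90, 8.02, 8.42 and 7.98 in basal samples, with a mean change of -0.10 ± 0.16 (SE). The other 4 probe sets of Cebpa had mean changes of -0.31 to -0.51. In 09I1, whose final array stood apart, their changes were -1.70 to -0.72, against 0.19 for the brightest. In the other tumors they lay between -0.84 and 0.40.

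Car3, a carbonic anhydrase abundant in fat and in slow muscle, had the widest range of the list. It read 10.04, 10.76, 6.60, 6.20 and 9.39 in final samples of 09I1, 11D2, 12I1, 29I1 and 43D1, against 5.06, 5.53, 6.55, 10.02 and 8.44 in basal samples. It was thus 31.5-fold higher in the final sample of 09I1, 37.4-fold higher in 11D2 and 14.1-fold lower in 29I1, and its mean change was 1.48 ± 1.27 (SE, limma adjusted p = 0.977). Its dimmer probe set had smaller differences, of 0.99 in 09I1, 3.80 in 11D2 and -1.97 in 29I1, with a mean of 0.71. The probe sets thus differed most in 09I1, whose final array stood apart, and the size of the Car3 change there is uncertain. Nnat, an imprinted membrane protein gene active in fat and in neuroendocrine cells, did not follow the core. It read 10.29, 9.09, 9.86, 8.85 and 7.16 in final samples, against 10.07, 9.84, 9.55, 9.69 and 7.64 in basal samples. Both samples of 43D1 were the lowest of their group, and the mean change was -0.31 ± 0.21 (SE, limma adjusted p = 0.977). Acvr1c, an activin receptor gene of fat cells, lay between 3.73 and 4.11 in final and between 3.66 and 4.30 in basal samples.

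The remaining droplet genes were less tied to the core. Plin4, another perilipin gene, ranged from 5.27 to 6.86 in final and from 5.27 to 6.55 in basal samples, and its mean change was 0.04 ± 0.24 (SE). Cidea, a droplet fusion gene of brown fat and, in mice, of lactating mammary epithelium, read 7.36, 7.17, 7.24, 6.41 and 7.19 in final samples of 09I1, 11D2, 12I1, 29I1 and 43D1, against 6.29, 5.56, 5.67, 7.38 and 7.05 in basal samples. Its changes in 09I1, 11D2 and 12I1 were 1.07, 1.61 and 1.57, so that 12I1, where the core was low in both samples, was among the higher ones. Ucp1, the uncoupling protein of brown fat, lay between 3.90 and 4.64 in final and between 3.78 and 4.05 in basal samples, and passed the filter limit on 1 array only, the final one of 09I1.

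Among the enzymes of lipolysis, Lipe, the hormone-sensitive lipase gene, read 7.18, 7.34, 7.00, 7.04 and 7.04 in final samples of 09I1, 11D2, 12I1, 29I1 and 43D1, against 7.15, 6.92, 6.74, 6.95 and 7.11 in basal samples. Its values spanned 0.60 over all arrays, against 3.74 for Adipoq, and its mean change was 0.15 ± 0.15 (SE, 95% interval -0.21 to 0.50). The dimmer Lipe probe set lay between 5.91 and 6.68, with a mean change of 0.13. Its changes in 12I1 and 43D1 were -0.43 and 0.38, against 0.27 and -0.07 for the brighter one. Pnpla2, the first lipase of the pathway, had a mean change of 0.17 ± 0.17 (SE), with changes of -0.25 to 0.59 by tumor. Mgll, the lipase of the last step, ranged from 7.81 to 8.31 in final and from 6.85 to 8.98 in basal samples, with a mean change of 0.30 ± 0.30 (SE). Its basal samples were the lowest in 12I1, at 6.85, and the highest in 43D1, at 8.98. Pnpla3, a related lipase, exceeded the limit on 1 array only, the final one of 09I1, at 4.84.

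Of the genes that control lipolysis, G0s2, which encodes an inhibitor of the Pnpla2 lipase, read 10.37, 8.99, 8.58, 8.11 and 7.97 in final samples of 09I1, 11D2, 12I1, 29I1 and 43D1, against 8.24, 8.69, 6.90, 8.52 and 7.82 in basal samples. It was higher in 4 of 5 tumors, with changes of 2.13 in 09I1 and 1.68 in 12I1, and the groups overlapped. Its mean change of 0.77 ± 0.38 (SE) had a limma adjusted p of 0.977, and it was 0.43 without 09I1. Aqp7, the glycerol channel of fat cells, read 4.53, 4.48, 3.92, 4.10 and 4.36 in final samples, against 4.32, 4.10, 3.90, 3.999 and 3.85 in basal samples. It was higher in 5 of 5 tumors by 0.02 to 0.52, with a mean of 0.25 ± 0.11 (SE, limma adjusted p = 0.977), but only 4 of its 10 values lay above the filter limit. Pde3b, the phosphodiesterase through which insulin restrains lipolysis, had a mean change of 0.01 ± 0.26 (SE) and changes of -0.83 to 0.87 by tumor. Adrb3, the beta-adrenergic receptor of fat cells, exceeded the limit on 0 of the 10 arrays.

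In the uptake group, Fabp4, the fatty acid carrier of fat cells, macrophages and small vessels, read 8.38, 9.15, 4.99, 4.57 and 8.21 in final samples of 09I1, 11D2, 12I1, 29I1 and 43D1, against 5.99, 5.03, 4.70, 8.47 and 6.35 in basal samples. It was 17.5-fold higher in the final sample of 11D2 and 14.9-fold lower in that of 29I1. Lpl, the lipase that frees fatty acids from circulating lipoproteins, read 9.00, 10.71, 9.91, 8.91 and 9.82 in final samples, against 9.23, 9.25, 8.94, 9.74 and 8.88 in basal samples. Unlike the core it was higher in 12I1, by 0.96, and lower in 09I1, by -0.23, and its mean change was 0.46 ± 0.34 (SE, limma adjusted p = 0.977).

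Cd36, a fatty acid transporter of fat cells, endothelium, macrophages and mammary epithelium, read 4.25, 8.16, 6.25, 5.11 and 7.71 in final samples of 09I1, 11D2, 12I1, 29I1 and 43D1, against 6.01, 6.29, 6.37, 7.47 and 5.57 in basal samples. Its mean change was -0.04 ± 0.70 (SE, limma adjusted p = 0.997). It parted from the core in 09I1, whose final array stood apart, with a change of -1.76, and without that tumor its mean change was 0.38. Acsl1, which activates fatty acids, had changes of 1.66 in 11D2 and -1.17 in 29I1 and of -0.42 to 0.35 in the other tumors. Slc2a4, the insulin-responsive glucose transporter of fat and muscle, spanned 0.46 over all arrays, with a mean change of 0.08 ± 0.13 (SE).

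The genes of triglyceride assembly also stayed apart from the core, except Pck1, which supplies glycerol for new triglyceride in fat cells. Pck1 read 5.14, 6.41, 3.68, 3.80 and 4.89 in final samples of 09I1, 11D2, 12I1, 29I1 and 43D1, against 3.97, 3.67, 3.97, 5.64 and 4.34 in basal samples. It exceeded the filter limit on 5 arrays, and its mean change was 0.47 ± 0.58 (SE). Agpat2, an enzyme of phosphatidic acid synthesis needed for fat storage, read 9.32, 8.23, 8.06, 8.79 and 8.08 in final samples, against 7.87, 7.93, 8.21, 8.28 and 7.68 in basal samples. It was higher in 4 of 5 tumors, by up to 1.45 in 09I1, with a mean of 0.50 ± 0.23 (SE, limma adjusted p = 0.977) that was 0.27 without 09I1. Lpin1, a phosphatidate phosphatase, read 7.25, 7.37, 8.01, 7.50 and 7.69 in final samples, against 8.47, 7.44, 7.35, 7.27 and 8.11 in basal samples, and had a mean change of -0.17 ± 0.27 (SE) and one of 0.10 without 09I1.

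Mean changes of the first and last enzymes of assembly were near 0. Gpam, the first acyltransferase, had a mean change of 0.08 ± 0.28 (SE), with -1.13 in 09I1 and, elsewhere, 0.03 to 0.69. Dgat1 and Dgat2, which complete triglyceride, had mean changes of 0.08 ± 0.16 and 0.04 ± 0.21 (SE), with 95% intervals of -0.30 to 0.45 and -0.44 to 0.53. Gpd1, which makes glycerol phosphate, had a mean change of 0.41 ± 0.23 (SE), with 1.18 in 12I1, where its basal value of 5.42 was the lowest of the 10.

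**Figure D4:**
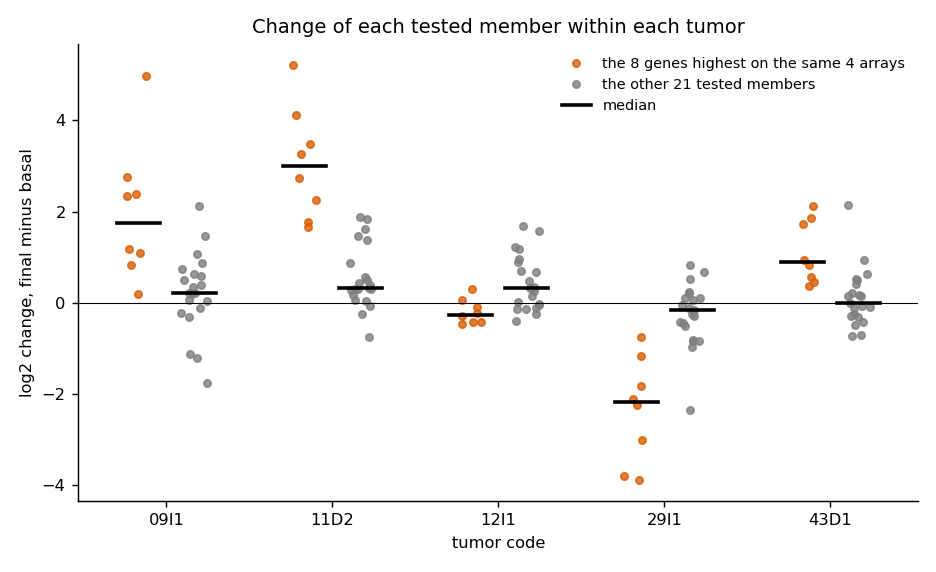
Log2 change, final minus basal, of each tested fat-cell gene in each tumor (points; horizontal scatter has no meaning), with medians as black bars. The medians of the 8 genes that share their 4 highest arrays are 1.75, 3.005, -0.26, -2.19 and 0.89 in 09I1, 11D2, 12I1, 29I1 and 43D1; those of the other 21 lie between -0.15 and 0.33.

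The 8 genes that shared their 4 highest arrays were all higher in the final samples of 09I1, 11D2 and 43D1 and all lower in that of 29I1, and 2 of 8 were higher in 12I1. Their values spanned 1.66 to 5.69 log2 units over the arrays, with a median of 3.14, against a median of 1.59 for the other 21 genes and 0.98 for all genes tested. Some of the 21 also differed widely between samples without following the core, such as Cd36, with a range of 3.91, and G0s2, with one of 3.47. The 21 genes had median changes of 0.22, 0.33, 0.31, -0.15 and -0.01 in 09I1, 11D2, 12I1, 29I1 and 43D1. Since the set was formed from these arrays, the split is a description. Single tumors set the size of the mean changes. That of Adipoq was 0.63 without 09I1, 0.45 without 11D2 and 1.89 without 29I1. That of Car3 was 0.60, 0.54 and 2.80 without the same tumors, that of Fabp4 0.60, 0.16 and 2.16, and that of Cidec 0.13, 0.15 and 1.24. Cfd and Pck1 turned to -0.13 and -0.10 without 11D2.

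Outside the list, a further set of 59 fat-cell pathway genes gave 54 measured and 48 tested genes. Of the 48, 0 passed the adjusted threshold in either direction (limma, 0% of all probe sets). At an unadjusted p under 0.05, 1 was higher and 0 lower, near the 1.78% and 1.1% of all genes, and the median change was -0.0008. That gene was Cebpd, an early regulator of fat-cell formation, with a change of 0.74 ± 0.25 (SE, limma adjusted p = 0.977), higher in 4 of 5 tumors. Sncg, a synuclein gene of fat cells and nerve, had a change of 1.15 ± 0.59 (SE). Plin2, a droplet coat of many cells and of milk fat globules, had one of 0.32 ± 0.14, and Npr1, a natriuretic peptide receptor that stimulates lipolysis in humans, one of 0.40 ± 0.23. Gpihbp1, the anchor of Lpl on capillaries, had a change of 0.50 ± 0.24, and Acsl4 one of -0.33 ± 0.23. The changes were -0.30 ± 0.21 for the caveolin gene Cav1, -0.17 ± 0.15 for Fitm2, -0.29 ± 0.17 for Gpat4 and -0.25 ± 0.15 for Lpin3.

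Of these 48 genes, 2 had the same 4 highest arrays as the core, Sncg and the retinol-binding protein gene Rbp4, which was named after its values were seen. Rbp4 read 6.02, 6.10, 3.52, 3.54 and 4.77 in final samples of 09I1, 11D2, 12I1, 29I1 and 43D1, against 3.53, 3.71, 3.67, 5.63 and 3.78 in basal samples, and its r with the core over 10 arrays was 0.97. Outside all lists, the 6 genes with the highest r were Ccl9 (0.94), Iah1 (0.90), Yif1a (0.89), Chmp6 (0.89), Slco3a1 (0.88) and Ccl21 (0.87). Ccl21, a chemokine of lymph nodes and lymphatic vessels, read 9.94, 9.12, 4.50, 4.35 and 9.30 in final samples, against 5.21, 6.48, 4.26, 9.28 and 7.81 in basal samples. Its 4 highest arrays were those of the core.

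Markers of other cell types also differed between samples. Of those tested, 0 had the same 4 highest arrays as the core. The share was 0.881% among all genes, so a count of 0 in lists of at most 9 genes is near that share. The 9 tested skeletal muscle genes (Acta1, Ckm, Actn3 and others) had a mean level of 9.48 in the final sample of 11D2, against 5.21 to 6.18 in the other final samples and 4.94 to 6.10 in basal samples. Their median change was 4.65 in 11D2, with 8 of 9 higher, and between -0.19 and 0.58 in the other tumors. The muscle probe sets were not alike. Acta1 also read 11.02 in the basal sample of 43D1, with a change of -3.50 there. Myh1, by the brightest of its 5 probe sets, lay between 10.33 and 11.84 on all arrays. It was that high also where Ckm was under the filter limit, so what this probe set reads is uncertain. Car3 and Slc2a4 are also muscle genes. In 09I1, where the Car3 probe sets had changes of 4.98 and 0.99, the muscle median was 0.58, with 9 of 9 muscle genes higher. The muscle medians of 09I1, 29I1 and 43D1 are the single changes of Myh1. What part the muscle signal had in the fat-cell values of 09I1 and 11D2 was not tested.

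The 8 macrophage genes had median changes of -0.46, 0.86, -0.85, -1.43 and 1.21 in 09I1, 11D2, 12I1, 29I1 and 43D1, with 8 of 8 higher in 11D2 and 43D1 and 0 of 8 in 12I1 and 29I1. Their mean level ranged from 8.48 to 9.58 in final and from 8.24 to 10.25 in basal samples. Cd36, which macrophages also use, had changes of -1.76, 1.87, -0.11, -2.36 and 2.14 in the same order. The 7 endothelial genes had median changes of -0.60 in 29I1 and, elsewhere, of 0.02 to 0.26, and the 7 fibroblast genes had -1.38 in 29I1, 0.99 in 11D2 and -0.70 to 0.72 in the rest. In 29I1, where the core was lower in the final sample, endothelial, macrophage and fibroblast genes were lower too, with 0 of 7, 0 of 8 and 0 of 7 higher. Their part in the fat-cell values was not tested.

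**Figure D5:**
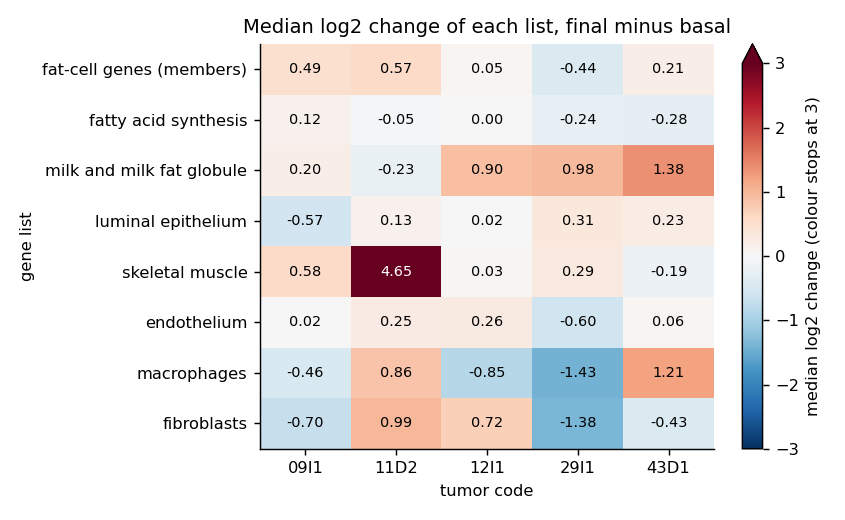
Median log2 change, final minus basal, of the fat-cell genes and of 7 lists of other cell types and processes in each tumor, printed in each cell; the colour stops at 3. The skeletal muscle median of 4.65 in 11D2 stands out, and fibroblast, macrophage and endothelial genes share negative medians with the fat-cell genes in 29I1.

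Fat is also made by the mammary epithelium for milk, so its genes were set beside the list. The 7 genes of fatty acid synthesis had median changes between -0.28 and 0.12 by tumor. Thrsp, a regulator of fatty acid synthesis, stood apart from its list, with changes of 0.94, 2.15, 5.14, 1.55 and 0.95 in 09I1, 11D2, 12I1, 29I1 and 43D1 and a mean of 2.15 ± 0.60 (SE, unadjusted p = 0.00864, limma adjusted p = 0.977). The elongase gene Elovl6 was lower in 4 of 5 tumors, with a mean of -0.50 ± 0.20 (SE, unadjusted p = 0.0432, limma adjusted p = 0.977). Both were named after their values were seen. The 6 tested milk genes (Csn2, Csn3, Wap, Lalba, Xdh and Mfge8) had 0.20, -0.23, 0.90, 0.98 and 1.38 in 09I1, 11D2, 12I1, 29I1 and 43D1. All 6 had mean changes above 0. At an unadjusted p under 0.05, 3 were higher, against 1.78% of all genes. They were Wap, Xdh and Lalba (unadjusted p = 0.00625, 0.032 and 0.0433, limma adjusted p = 0.966, 0.977 and 0.977), named after their values were seen. In 12I1, where the core stayed low in both samples, Cidea, G0s2, Gpd1, Mgll, Lpl and Pparg had changes of 0.88 to 1.68. These 6 genes were picked after their values were seen. In 29I1, with a milk median of 0.98, their changes were -0.97 to 0.82, and 5 of the 6 were negative. Of all 29 tested fat-cell genes, 8 were above 0 there. In 43D1, with a milk median of 1.38, the 6 genes had changes of -0.72 to 0.93. The 7 luminal epithelium genes had median changes of -0.57 in 09I1 and, elsewhere, of 0.02 to 0.31. The part of the epithelium in the fat-cell values was not tested.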

How the data were processed

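RNA of 10 tumor samples was hybridised to Affymetrix Rat Genome 230 2.0 arrays, 1 sample per array. The deposited table held log2 signals per probe set made with RMA (robust multichip averaging), per the submitters' processing notes. The design text describes a filter on controls and dim probe sets, but all 31099 probe sets, 57 controls included, stood in the table. Its paired test is kept here as a block. Controls and the 25% of probe sets with the lowest mean were left out, and 23281 probe sets were fitted with limma 3.58.1 in R 4.3.3 (lmFit and eBayes with an intensity trend, tumor code as a block, 5 final and 5 basal samples, Benjamini-Hochberg adjustment, threshold 0.05). The fit was tested on simulated data. Array depth has no counts, so the number of arrays limits the precision.

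Gene symbols came from the platform annotation, in which 20826 probe sets had 1 symbol, 436 several and 9780 none. Genes and lists were chosen with earlier results of these data known. Per-array values are given for the main fat-cell markers and for the 4 genes per direction with the smallest unadjusted p; for some further genes they were added after the values were seen. Of the other pathway genes, the 2 per list with the smallest unadjusted p are named. Likeness is Pearson's r with the mean of Adipoq, Plin1 and Cidec.

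Pairing comes from the tumor codes in the labels. Deviations from the group means correlated within tumors at 0.09, 0.09, -0.0044, -0.13 and 0.21 in 09I1, 11D2, 12I1, 29I1 and 43D1. Alternatives were no block, a random block, other filters, cyclic loess, median centring, array weights, no trend, the methods' t-test, averaging the probe sets of each gene and each tumor left out.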

Additional observations from a re-analysis of the deposited data

Results flagged for a closer look

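Of 68 sets of 5 samples (34 genes in each group), 10 held a sample far from its group by Dixon's criterion, where chance gives about 1 in 20 (3.4 sets). The final sample of 09I1, whose array stood apart from the others, accounted for 5 of them. There Pnpla2 read 9.38 (other final samples 8.21 to 8.38), Pnpla3 4.84 (3.75 to 4.05), Gpam 4.97 (6.62 to 7.24), Dgat1 9.29 (8.61 to 8.74) and Ucp1 4.64 (3.90 to 4.02). These include the lipase that starts lipolysis, the first and last acyltransferases of triglyceride assembly and the brown fat uncoupler.

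The basal sample of 29I1 accounted for 3. In it Adipoq read 6.90 (other basal samples 3.78 to 4.66), Cfd 10.79 (7.25 to 8.04) and Cebpa, by its brightest probe set, 8.42 (7.90 to 8.03). Thus 2 secreted fat-cell products were high together. For Cebpa the probe sets differed. The dimmest had its lowest basal value there, 5.085, and another read 7.31 against 7.22 in the basal sample of 12I1. The remaining ones were also highest there among basal samples. The final sample of the same tumor was low in Cidea, at 6.41 (other final samples 7.17 to 7.36). The basal sample of 43D1 was low in Nnat, at 7.64 (other basal samples 9.55 to 10.07), and its final sample, at 7.16, was also the lowest of its group.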

How the results depend on the processing

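Under every alternative run, 0 probe sets and 0 fat-cell genes passed the adjusted threshold. The median change of the fat-cell genes was 0.30 with the tumor block. It was also 0.30 with no replicate block, which leaves each gene's change as it was. The median was positive throughout. It was 0.18 with no filter (34 genes), 0.24 with the 50% filter (20 genes), 0.32 with cyclic loess, 0.33 with median centring, 0.41 with array weights, 0.25 with averaged probe sets per gene, and 0.13 (without 11D2) to 0.50 (without 29I1) with a tumor left out. Probe sets at an unadjusted p under 0.05 numbered 935, against 2440 with array weights, 1868 without 09I1 and 608 without 11D2. With array weights, 6 fat-cell genes had such a p (Angptl4, Pparg, Nnat, Cidea, Aqp7 and Lpl), and the smallest adjusted p was 0.365 (limma). Without 12I1, Aqp7 and Agpat2 did. No block changed no adjusted call.

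Of 426 alternative values of single genes, 406 kept their direction and 20 did not. Many of the 406 could not have done otherwise. No block, a random block, other filters, no trend and the t-test leave each gene's change as in the main fit. The 406 therefore overstates how well directions held. All 20 reversals came from cyclic loess, array weights or leaving a tumor out. With array weights Cd36 had 0.81, Dgat1 -0.0061 and Dgat2 -0.16, and with cyclic loess Pde3b had -0.029. With a tumor left out, ranges that crossed 0 were -0.13 to 1.44 for Cfd, -0.17 to 0.0030 for Cebpa, -0.089 to 0.24 for Plin4, -0.21 to 0.21 for Pde3b, -0.59 to 0.54 for Cd36, -0.26 to 0.45 for Acsl1, -0.066 to 0.39 for Gpam, -0.37 to 0.098 for Lpin1, -0.061 to 0.13 for Dgat1, -0.16 to 0.13 for Dgat2 and -0.10 to 1.04 for Pck1. The cause was not tested. Signals near the filter limit of 4.11 bound what can be read of Lep, Acvr1c, Pnpla3, Adrb3 and Ucp1.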
